A study of Arabidopsis thaliana with 14 samples.

Results

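The autonomous flowering pathway of Arabidopsis thaliana was examined at 6 loci, FCA (AT4G16280), FPA (AT2G43410), FLK (AT3G04610), FVE (AT2G19520), LD (AT4G02560) and FLD (AT3G10390), chosen by name from the 37899 nuclear genes of the RefSeq annotation. For each locus all poly(A) clusters in the annotated span and 200 nt to either side, and all m6A and CLIP peaks overlapping the span, were collected. A-seq2, which sequences transcript ends next to the poly(A) tail, was applied to 12-day seedlings of the cpsf70 mutant (2 libraries) and of the wild type Col0 (2 libraries). CLIP of FLAG-tagged CPSF70 came from 12-day seedlings of an overexpression line (2 libraries), and m6A sequencing from 14-day Col0 seedlings (2 libraries). RNA-seq compared 12-day cpsf70 and Col0 seedlings (2 libraries each). The labels name neither the mutant allele nor the promoter of the overexpression line, and do not say whether replicates were separate plantings. The p-values therefore measure the spread between these libraries, which may be technical. In the limma fits of sites and of gene totals this spread was pooled over the whole table. Genes printed below thus share the same SE within a fit, which is not the spread of a single gene.

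These genes promote flowering by lowering the level of FLC, the MADS-box repressor of flowering. FCA, FPA and FLK are RNA-binding proteins that act on the processing of RNA at FLC, including the choice of the poly(A) site of its antisense transcripts, whereas FVE and FLD are chromatin proteins. FCA and FPA are also known for cleavage of their own transcripts at poly(A) sites inside the gene, far before the normal end, which gives short transcripts that do not encode the full protein. CPSF70 is the longer product of the CPSF30 locus, a subunit of the cleavage and polyadenylation complex that carries a YTH domain, which binds m6A. In plants m6A is most common near the ends of transcripts.

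Few poly(A) tags fell in the 6 loci. FLK and FVE had a site at the gene end in all 4 libraries, FCA and LD had a site on the gene strand in Col0 replicate 1 only, and FPA and FLD had none. A cluster that is not listed is not shown to be absent. Both Col0 tables begin at 3 TPM, so a cluster they do not list lies below that floor. Both cpsf70 tables list the same clusters, all of at least 3 TPM in replicate 2. A cluster they do not list lies below 3 TPM in replicate 2, while replicate 1 sets no limit. From the spacing of the values, a single read was inferred to be worth 0.257 and 0.164 TPM in cpsf70 replicates 1 and 2 and 0.319 and 0.308 TPM in Col0 replicates 1 and 2. For Col0 replicate 1, 78.6% of values were whole at 0.319 TPM and 85.4% at 0.159 TPM, and the larger unit was used, as for the other libraries. On these units the floor of 3 TPM stands at 18.3 reads in cpsf70 replicate 2 and at 9.41 and 9.75 reads in the Col0 libraries. Both cpsf70 poly(A) tables carry the same internal name, though their values differ, and the internal names of the CLIP tables carry the other replicate's number. The sample titles were followed in both cases. In the authors' deposited table CPSF30 itself stood at 0.542 and 0.593 FPKM in cpsf70 and at 5.58 and 4.87 FPKM in Col0. Of the marker genes for the organs of a seedling, the leaf gene RBCS1A had 6191 to 8743 TPM and the root transporter PHT1;1 31.1 to 44.3 TPM over the 4 libraries. The leaf gene CAB1 stood at 7531 and 6550 TPM in cpsf70, against 3807 and 2771 TPM in Col0, and the part of this difference in the results below was not tested. The root gene TIP2;3 and the flower gene AG were listed in Col0 replicate 1 only, at 3.83 and 4.46 TPM, and the flower gene LFY in no library.

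**Figure D1:**
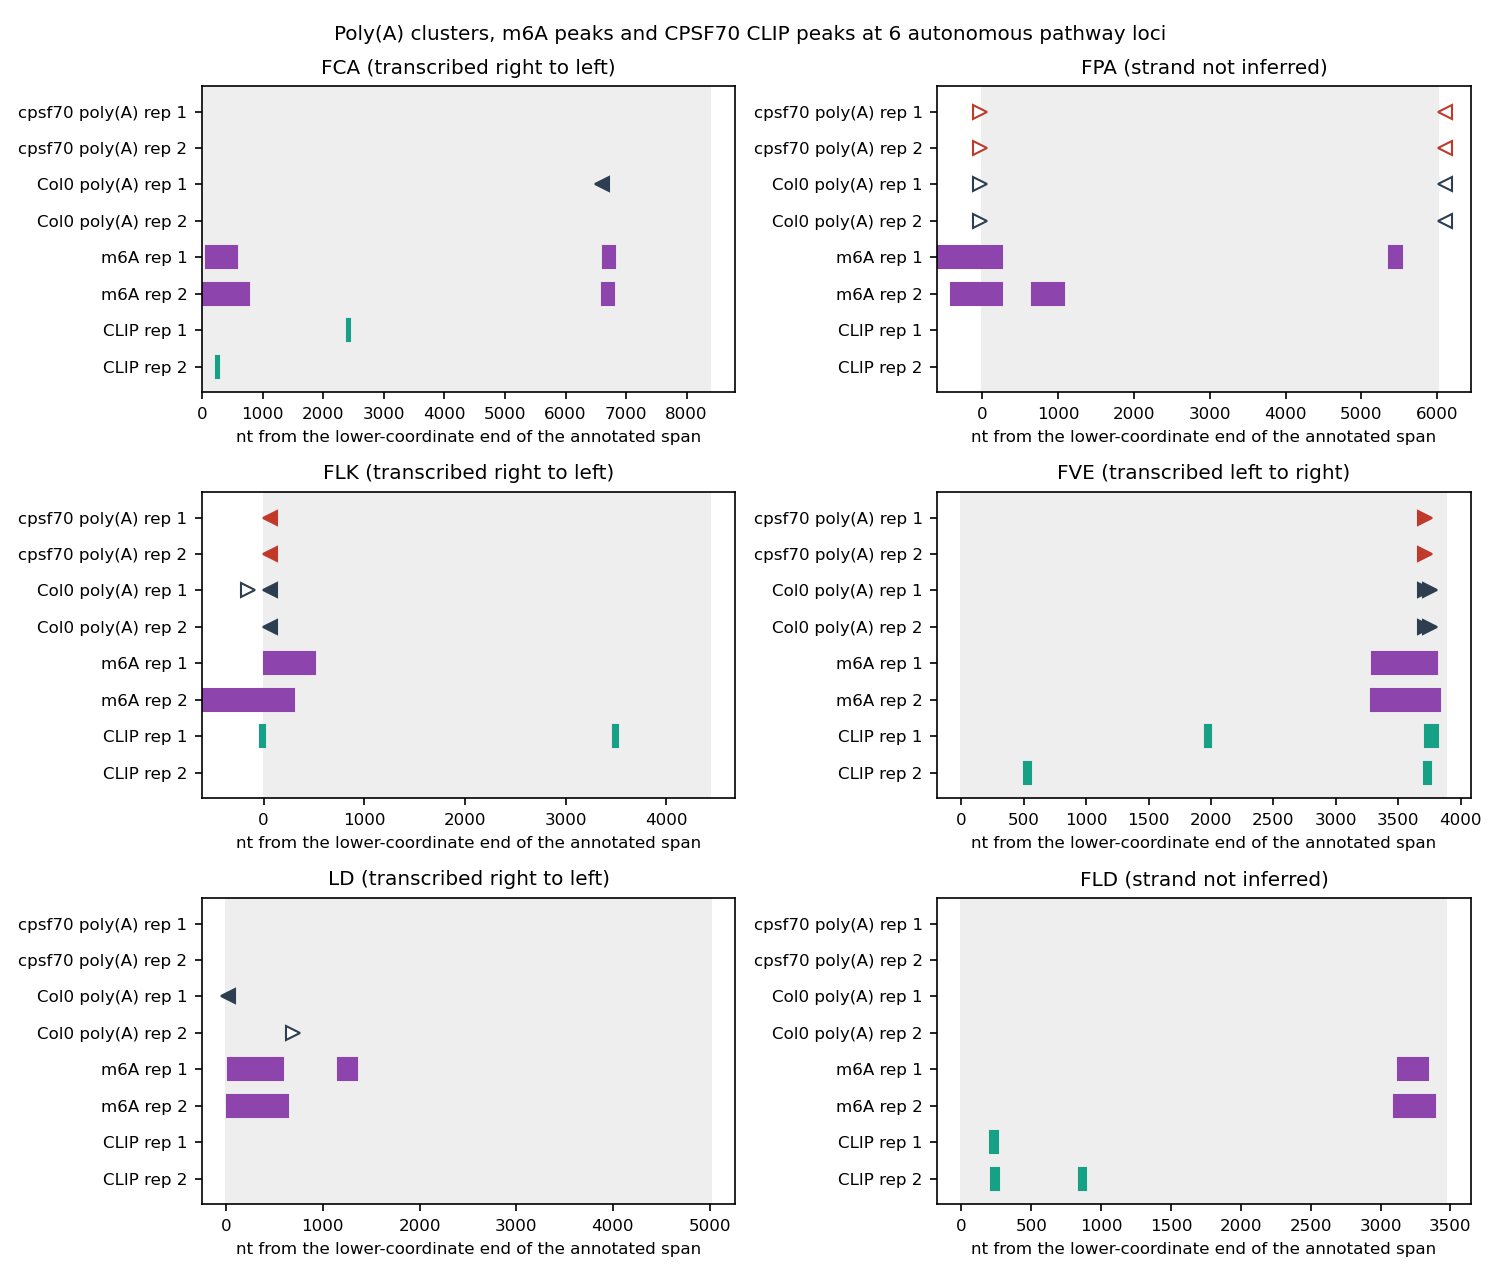
Each panel plots the annotated span of a locus (grey), with nt from its lower-coordinate end on the x axis and the 8 libraries on the y axis. Triangles are poly(A) clusters and point in the direction of their strand (filled: in the span on the gene strand; open: other clusters within 200 nt or on the other strand), and bars are m6A and CLIP peaks that overlap the span. Only FLK and FVE have a filled triangle in all 4 poly(A) libraries, and each of the 6 loci has overlapping m6A peaks in both replicates.

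FCA encodes an RNA-binding protein with RRM domains and a WW domain, through which it binds FY, the plant form of a core cleavage factor. Its only cluster lay on chromosome 4 from 9213190 to 9213212 on the minus strand (TAIR10), with 3.19 TPM in Col0 replicate 1 and no entry in either cpsf70 table or in Col0 replicate 2. This value is 10 reads, and its counting interval (exact Poisson, 95%) runs from 1.53 to 5.86 TPM, so it includes the floor of 3 TPM. This interval and those below cover counting error only, since reads need not be independent molecules. Were a read worth 0.159 TPM, the interval would run from 1.95 to 4.92 TPM and still include the floor. The strand of FCA was inferred from this cluster alone. Read on that strand, the cluster lies 6604 nt before the annotated gene end and 1780 nt after the other end of the span, so it is an internal site, and no distal site was listed in any library. Exons and introns were not used here, so the cluster was not placed in an intron.

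The internal FCA cluster stood next to an m6A peak found in both replicates. The peak of replicate 1 (9213215 to 9213409, fold 3.10) began 2 nt beyond the cluster, on its upstream side, and the peak of replicate 2 (9213197 to 9213398, fold 4.27) overlapped 16 of its 23 nt. Peak folds here and below are the authors' values, and the lists give no strand. By fold these peaks were low in their lists, at or above 26.2% and 29.5% of the nuclear peaks. Among 6589 internal sites listed in a Col0 table, defined as lying more than 500 nt before a gene end, 16.3% had m6A peaks of both replicates within 300 nt upstream. Among the 845 internal sites listed in Col0 replicate 1 alone, as in FCA, the share was 11.8%, and 452 of the 845 were under 4 TPM. No CLIP peak lay near this cluster.

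At the end of FCA a stronger m6A peak was found. It spanned 9206653 to 9207173 in replicate 1 (fold 8.87) and 9206592 to 9207364 in replicate 2 (fold 10.3), with its centre 316 and 381 nt from the gene end as read on the minus strand. It ranked at or above 95.7% and 87.2% of peaks. A CLIP peak of replicate 2 (9206826 to 9206875, fold 3.02) lay wholly inside it, and replicate 1 had no CLIP peak there. The CLIP peak of replicate 1 in FCA (9208993 to 9209042, fold 3.57) was not found in replicate 2. The labels do not state the control used in calling CLIP peaks, the internal names of the CLIP tables mention Col0 and input, and the Col0 CLIP samples were not analysed here.

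FPA, which carries a SPOC domain beside its RRM domains, had no cluster in its span on either strand in any of the 4 libraries. Clusters within 200 nt of the span lay in the neighbouring genes. The gene ETFQO had a plus-strand cluster (chromosome 2, 18025210 to 18025227 in cpsf70, 18025210 to 18025223 in Col0) at 5.28 and 5.64 TPM in cpsf70, against 7.45 and 5.99 TPM in Col0. AT2G43420 had a minus-strand cluster (18031338 to 18031368 in cpsf70, 18031328 to 18031358 in Col0) at 10.4 and 9.37 TPM in cpsf70, against 7.65 and 8.00 TPM in Col0. Both neighbours were thus above the floor in all 4 libraries, while no cluster of FPA was listed. An unlisted cluster lies below 3 TPM in both Col0 libraries and in cpsf70 replicate 2, while cpsf70 replicate 1 sets no limit.

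Methylation peaks at FPA were weak and partly shared with a neighbour. The peak found in both replicates (18024655 to 18025506, fold 2.95, and 18024836 to 18025509, fold 3.50) also covered the end of ETFQO, and 260 of its 852 nt in replicate 1 lay in the FPA span. Because the lists have no strand, this peak cannot be given to either gene. Further peaks were found in replicate 1 only (18030610 to 18030781, fold 2.22) and in replicate 2 only (18025905 to 18026322, fold 4.23), the second of them over the non-coding gene AT2G09470. No CLIP peak overlapped the span of FPA. Since neither FCA nor FPA had both an internal and a distal site, neither had a value of internal against distal use, and no gene with a like pattern is named.

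FLK, an RNA-binding protein with KH domains, had a single site at its end. The site had 20.9 and 16.0 TPM in cpsf70, against 20.7 and 18.5 TPM in Col0 (chromosome 3, 1250568 to 1250668 in cpsf70, 1250611 to 1250631 in Col0, minus strand). The genotypes overlapped, with means of 18.4 ± 3.45 TPM in cpsf70 and 19.6 ± 1.59 TPM in Col0 (SD, n = 2). The change was −0.09 on the log2(TPM + 1) scale (SE 0.49, 95% interval −1.06 to 0.87; limma over 13668 sites, Benjamini-Hochberg adjusted p = 0.9996). The SE was the same at every site printed here, as limma pooled the spread over all sites, so it is not the spread of FLK alone. For FLK it was 0.16 after rescaling the libraries by median ratios and 0.19 with the replicate number as a block. FLK passed limma in neither (Benjamini-Hochberg adjusted p = 0.631 and 0.806). Changes inside an interval as wide as that of the main fit would not be detected by it. In whole seedlings fewer cells of a type and less RNA per cell cannot be told apart. The cluster was drawn 101 nt wide in cpsf70 and 21 nt wide in Col0, and bounds were set separately for each genotype.

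The FLK site lay inside an m6A peak in both replicates (1250555 to 1251067, fold 5.84, and 1249940 to 1250852, fold 9.47), the second of which ran on into the neighbouring locus MUG1. CLIP peaks in FLK were found in replicate 1 only, at the gene end (1250513 to 1250562, fold 2.93, with 10 of its nt in the span) and far from it (1254020 to 1254073, fold 4.22). A plus-strand cluster just outside FLK (1250380 to 1250412) had 3.19 TPM in Col0 replicate 1 and was listed in no other table.

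**Figure D2:**
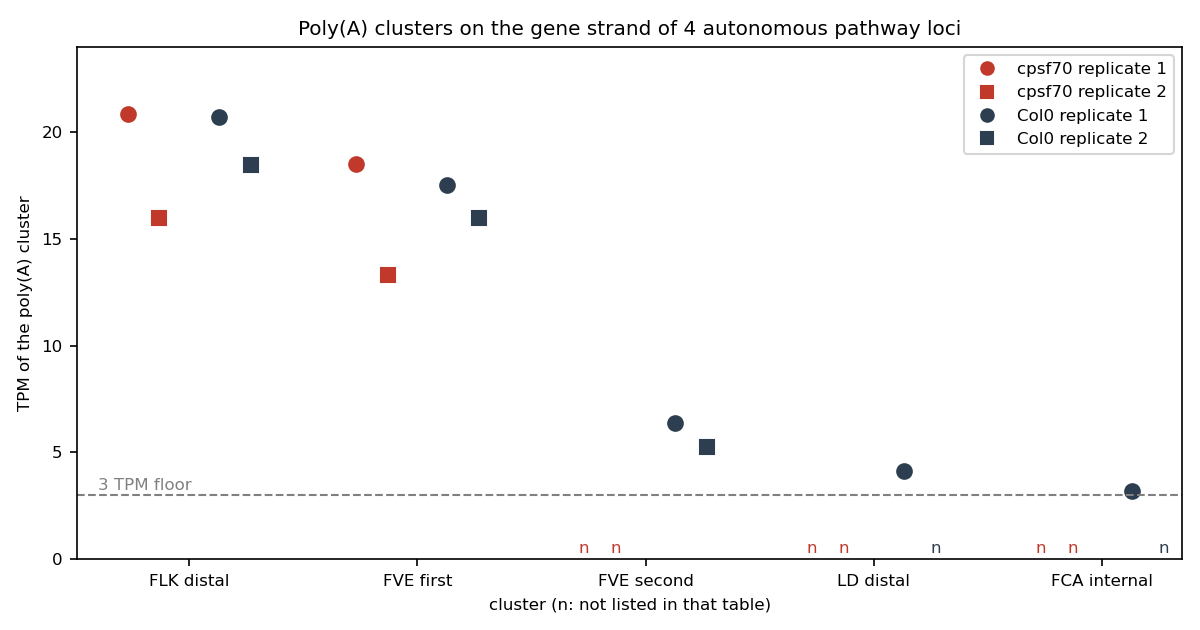
TPM (y axis) of the 5 clusters on the gene strand of FLK, FVE, LD and FCA (x axis), with cpsf70 libraries in red and Col0 libraries in dark blue, circles for replicate 1 and squares for replicate 2, and "n" where a table does not list the cluster. The FLK values of the genotypes overlap at 16.0 to 20.9 TPM, and the second FVE cluster has 6.38 and 5.23 TPM in Col0 and no cpsf70 entry.

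FVE, also called MSI4, is a WD-repeat protein that binds histones and works with the deacetylase HDA6. Its end was the only place in the 6 loci where poly(A) sites, m6A and CPSF70 CLIP met in both replicates of each assay. Only FLK and FVE had a site in all 4 libraries, so the other members could not show this. The share of all genes with such a meeting was not counted. Of 15144 distal sites listed in a Col0 table, 67.4% had m6A peaks of both replicates within 300 nt upstream. Shared CLIP peaks were found in 31.8% of protein-coding genes at least as long as the shortest member (with an inferred strand). The first cluster (chromosome 2, 8459451 to 8459490 in cpsf70, 8459452 to 8459490 in Col0, plus strand) had 18.5 and 13.3 TPM in cpsf70, against 17.5 and 16.0 TPM in Col0, and the genotypes overlapped. The second cluster (8459500 to 8459528), nearer the gene end, was listed in neither cpsf70 table, against 6.38 and 5.23 TPM in Col0. The clusters are 9 nt apart in Col0, with centres 171 and 128 nt before the annotated gene end.

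In Col0 the second cluster took 26.7% of the FVE tags in replicate 1 (20 of 75 reads, exact Clopper-Pearson 95% interval 17.1 to 38.1) and 24.6% in replicate 2 (17 of 69 reads, interval 15.1 to 36.5). Were a read of replicate 1 worth 0.159 TPM, the second cluster would hold 40 reads there, with an interval of 19.8 to 34.5%. In cpsf70 replicate 2, a second cluster just under 3 TPM would have taken 18.4%, so its share there may have been anything from 0 to that value and was not measured. Replicate 1 of cpsf70 sets no such limit, because its table lists the clusters chosen in replicate 2. Missing entries of this kind were common. Of 4290 Col0 clusters with a mean of 5 to 7 TPM and the same bounds in both Col0 tables, 19.5% had no overlapping cpsf70 cluster, and 4.90% had none but had one within 24 nt, as in FVE.

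With both clusters joined, FVE had 18.5 and 13.3 TPM in cpsf70, against 23.9 and 21.2 TPM in Col0. The cpsf70 values are those of the first cluster alone, with the unlisted second cluster counted as 0. On this count both cpsf70 libraries were below both Col0 libraries, at 15.9 ± 3.71 TPM in cpsf70 and 22.6 ± 1.89 TPM in Col0 (SD, n = 2). Libraries of the genotypes did not overlap at 40.3% of all sites tested, with cpsf70 lower at 17.8%. The change of −0.49 (SE 0.49, 95% interval −1.46 to 0.47) did not pass limma over all sites (Benjamini-Hochberg adjusted p = 0.9996). It was −0.09 for the first cluster alone, when clusters were joined only where they overlap or touch, −0.72 without cpsf70 replicate 1 and −0.27 without cpsf70 replicate 2. After rescaling by median ratios the FVE change was −0.55 (SE 0.16, limma, Benjamini-Hochberg adjusted p = 0.241). With the replicate number as a block its SE was 0.20 (limma, Benjamini-Hochberg adjusted p = 0.339), so FVE passed in neither. In the main fit 0 of the 2 member sites tested passed limma in either direction, and 0 at an unadjusted p under 0.05. Of all 13668 sites, 2.2% passed with adjustment (0.615% higher and 1.59% lower in cpsf70) and 8.85% had an unadjusted p under 0.05.

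The m6A peak at the end of FVE (8459045 to 8459566, fold 5.98, and 8459037 to 8459591, fold 8.25) covered both clusters in full in both replicates. CPSF70 CLIP peaks (8459469 to 8459578, fold 3.73, and 8459467 to 8459521, fold 5.45) lay over the same stretch. By fold they ranked at or above 41.7% and 74.1% of the CLIP peaks of their replicates. The CLIP peak of replicate 1 covered all 29 nt of the second cluster and 22 of 39 nt of the first Col0 cluster, and that of replicate 2 covered 22 nt of the second and 24 nt of the first. Within the m6A peaks lay 98 of the 110 nt of the first CLIP peak in m6A replicate 1 and all of it in m6A replicate 2, and the whole of the second CLIP peak in both. Other CLIP peaks in FVE (8457706 to 8457758, fold 3.79, in replicate 1 and 8456261 to 8456310, fold 3.46, in replicate 2) were not shared.

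**Figure D3:**
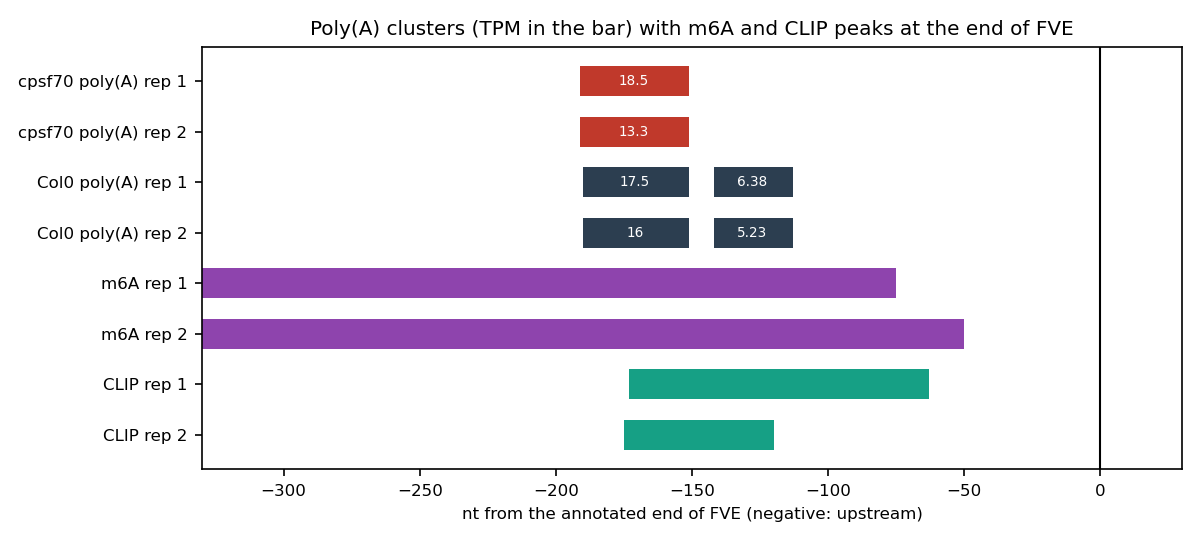
Poly(A) clusters with their TPM (red: cpsf70, dark blue: Col0), m6A peaks (purple) and CPSF70 CLIP peaks (green) are drawn to scale by nt from the annotated end of FVE (x axis), 1 library per row. The second cluster, with 6.38 and 5.23 TPM in Col0, has no counterpart in the cpsf70 rows and lies under both CLIP peaks except for its last 7 nt in CLIP replicate 2.

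LD, a homeodomain protein, had a site at its annotated end (chromosome 4, 1123492 to 1123504, minus strand) at 4.14 TPM in Col0 replicate 1, with no entry in either cpsf70 table or in Col0 replicate 2. This value is 13 reads, with a counting interval from 2.21 to 7.09 TPM that includes the floor. On the other strand, a cluster inside LD (1124152 to 1124187) had 12.2 TPM in Col0 replicate 2 and was listed in no other library. LD therefore gave no value for a comparison of the genotypes.

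LD held the strongest m6A peak of the 6 loci, with folds of 13.4 (1123498 to 1124057) and 14.2 (1123488 to 1124111). It stood at or above 99.8% and 96.6% of the peaks of its replicate, with centres 302.5 and 324.5 nt from the gene end, and it overlapped the poly(A) cluster by 7 and 13 of 13 nt. A second peak (1124630 to 1124830, fold 2.43) was found in replicate 1 only. No CLIP peak of either replicate overlapped LD.

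FLD, a histone demethylase of the LSD1 type, had no poly(A) cluster in its span or within 200 nt of it, on either strand, in any library. Its m6A peak was found in both replicates near the higher-coordinate end (chromosome 3, 3232187 to 3232396, fold 3.10, and 3232155 to 3232448, fold 5.83), with centres 239.5 and 229.5 nt from that end. CPSF70 CLIP peaks of nearly the same position in both replicates (3229266 to 3229319, fold 5.07, and 3229272 to 3229325, fold 5.94) lay near the other end, 2829 to 2867 nt from the m6A peaks. They ranked at or above 74.1% and 80.0% of the CLIP peaks. A further CLIP peak (3229898 to 3229947, fold 2.79) was found in replicate 2 only. FLD thus differed from FVE, where the shared CLIP and m6A peaks overlapped.

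**Figure D4:**
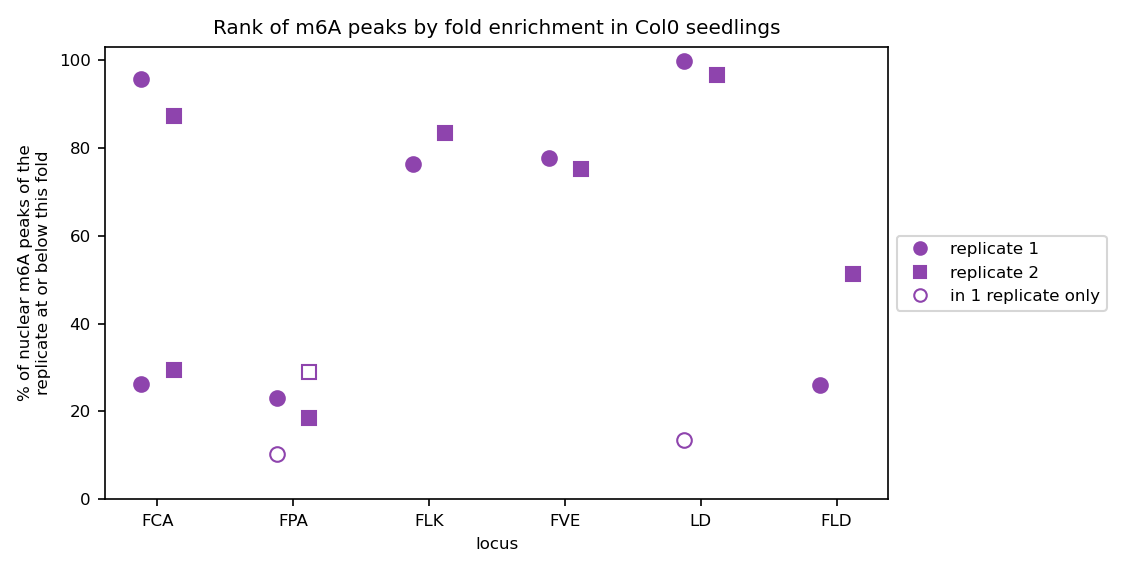
Rank of each m6A peak that overlaps a locus (x axis), as the percent of nuclear m6A peaks of its replicate at or below its fold (y axis). Filled symbols overlap a peak of the other replicate and open symbols do not. LD ranks highest at 99.8% and 96.6%, and the shared FPA peak lies at 23.1% and 18.4%.

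Across the 6 loci, m6A peaks of both replicates overlapped in 6 of 6, against 87.0% of 3303 protein-coding genes with an inferred strand that were at least as long as the shortest member. Shared CLIP peaks were found in 2 of 6, FVE and FLD, against 31.8% of the same genes, so both shares were near those of genes of like length. The strongest shared m6A peak lay within 500 nt of the gene end in 79.7% of such genes. At the members with a strand it did so in FCA, FLK, FVE and LD. FPA and FLD had no inferred strand, so the genes compared with leave out loci of their kind. The shared m6A peak counted for FPA could not be given to FPA or to ETFQO. The order of the members by fold was LD, FCA, FVE, FLK, FLD and FPA in replicate 1 and LD, FCA, FLK, FVE, FLD and FPA in replicate 2 for the strongest shared peak of each. The neighbours FVE and FLK changed places between replicates, so they are not told apart.

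None of the 6 members is among the 168 genes of the authors' deposited table of changed transcripts, which was preselected by the authors and holds no value for other genes. Of the pathway list of 21 further genes, which act with the members on FLC or follow it, 1 is in that table. FLC stood at 1.70 and 1.87 FPKM in cpsf70, against 3.35 and 2.99 FPKM in Col0 (fold 0.655 in the authors' deposited table). The deposited folds of FLC and CPSF30 are not the ratios of the FPKM beside them, and how they were computed is not stated. No strand was inferred for FLC, its target FT or the cleavage factor PCFS4, so no poly(A) site was assigned to them. This does not show that their spans held no cluster.

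The remaining 18 genes of the pathway list had a site in at least 1 table. Gene totals were summed only over sites listed in all 4 tables, so sites missing from any table were left out. Of the 18 genes, 9 had a site listed in all 4 and so a total. Of these 9, 0 passed limma over 9989 gene totals in either direction, and 1 had an unadjusted p under 0.05. Over all genes 1.8% passed with adjustment (0.25% higher and 1.55% lower in cpsf70) and 6.74% had an unadjusted p under 0.05. Their median change was −0.26 on the log2(TPM + 1) scale (4 above 0, 5 below), against 0.024 for all genes. The genotypes did not overlap for 4 of the 9, against 36.4% of all genes. LDL1, a histone demethylase related to FLD, was measured at a site 2360 nt before its gene end and had 47.0 and 29.0 TPM in cpsf70, against 69.9 and 91.0 TPM in Col0, a change of −1.09 (SE 0.44; limma, Benjamini-Hochberg adjusted p = 0.373). The RNA-binding protein RZ-1C had 1.54 and 3.12 TPM in cpsf70, against 5.10 and 4.31 TPM in Col0 (change −0.81, or −0.47 without cpsf70 replicate 1). Its change was −2.12 with all sites counted and with absent values and those under 3 TPM as 0. That setting added a second site, listed in Col0 only (totals then of 8.29 and 7.39 TPM in Col0). It also set the 1.54 TPM of cpsf70 replicate 1 to 0. Toward higher values, ESP1, a CstF64-like protein, had 16.2 and 13.9 TPM in cpsf70, against 12.4 and 8.68 TPM in Col0 (change 0.49, or 0.25 without Col0 replicate 2).

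**Figure D5:**
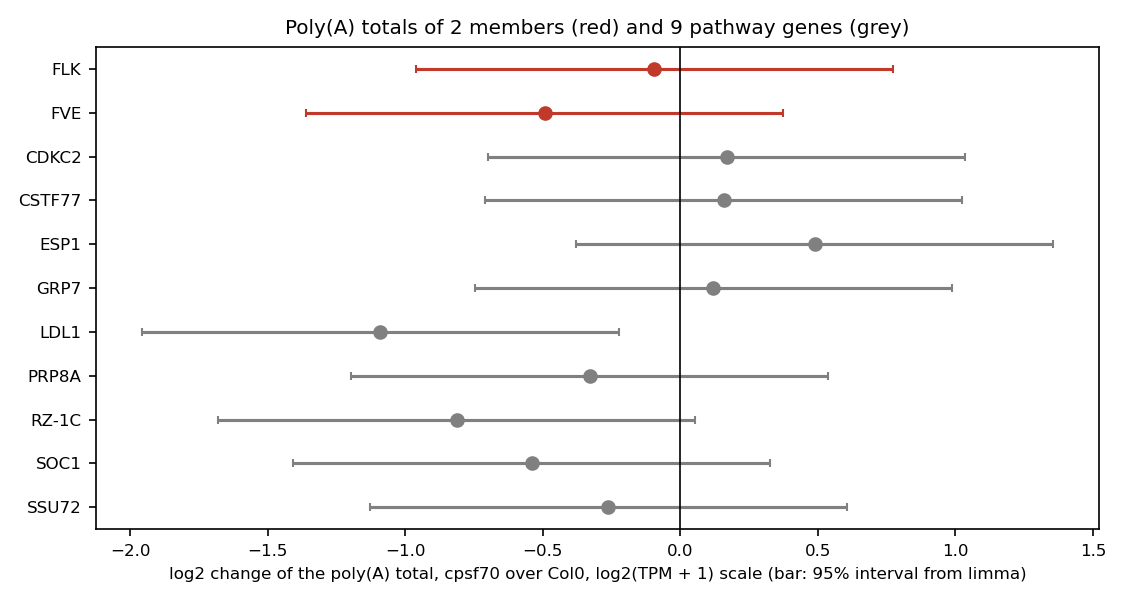
Change of the poly(A) total between cpsf70 and Col0 (x axis, log2(TPM + 1) scale, positive where cpsf70 is higher; bars are 95% intervals from limma) for FLK and FVE (red) and 9 genes of the pathway list (grey). All intervals except that of LDL1 include 0, and none of the 11 genes passed after adjustment.

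Several genes of the pathway list were listed in a single genotype. FY, the partner of FCA, had 4.14 and 4.62 TPM in Col0 and was not listed in cpsf70, as were the cleavage factor CSTF64 (3.83 and 3.16 TPM in Col0) and RZ-1B (11.2 and 8.31 TPM in Col0). MSI5, a relative of FVE, had 2.45 and 3.34 TPM in cpsf70 and was not listed in Col0, and LDL2 had 0 and 3.06 TPM in cpsf70. Thus 3 of 18 genes were listed in both Col0 tables alone, against 7.60% of 13980 protein-coding genes with a site, and 2 of 18 in both cpsf70 tables alone, against 3.50%. These counts follow unlike rules. A listing in both Col0 tables needs 3 TPM in each library, whereas a listing in both cpsf70 tables needs 3 TPM in replicate 2 only. Most of the TPM values of these genes stood close to the floor of 3 TPM. RZ-1B was the exception, with both Col0 values above 8 TPM.

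Internal against distal use could be measured for 3 genes of the pathway list, LDL1, GRP7 and REF6, and for 0 of the 6 members. None of the 3 passed limma, nor had any an unadjusted p under 0.05. Over all 2818 genes 0.0% passed, 21.3% had an unadjusted p under 0.05 and the median change of log2((distal + 1)/(internal + 1)) was −0.80. LDL1 had internal tags of 47.0 and 29.0 TPM in cpsf70, against 69.9 and 91.0 TPM in Col0. Its distal site was not listed in cpsf70, against 5.74 and 3.69 TPM in Col0 (change −1.40, SE 0.67; limma, Benjamini-Hochberg adjusted p = 0.358, with the unlisted site as 0). GRP7, an RNA-binding protein that also lowers FLC, had internal tags of 54.2 and 113 TPM in cpsf70, against 56.9 and 34.4 TPM in Col0, and distal tags of 2996 and 2583 TPM in cpsf70, against 2970 and 2272 TPM in Col0 (change −0.71, SE 0.70; limma, Benjamini-Hochberg adjusted p = 0.557). The REF6 value rests on Col0 replicate 2 alone, where an internal site had 1038 TPM and no other library listed one.

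Shared m6A peaks were found in 18 of the 21 genes of the pathway list. The exceptions were LDL1, LDL2 and FT. Shared CLIP peaks were found in 3 of 21, CSTF64, GRP7 and the flowering activator SOC1. Over all 14841 protein-coding genes with an inferred strand the shares were 68.4% for m6A and 29.3% for CLIP. Among the 3303 of them at least as long as the shortest member they were 87.0% and 31.8%. The lengths of the genes in the pathway list were not matched.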

How the data were processed

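Poly(A) RNA was the input throughout, per the labels. The build TAIR10 and the tools MACS2 2.2.5, HISAT2 2.1.0 and cutadapt 1.18 come from the submitters' processing notes, without roles or settings. The authors deposited poly(A) clusters per library in TPM, FPKM with a fold and a p-value for preselected genes, and peaks per replicate with fold enrichment (a ratio) and −log10 p-value, per the file headers. Read values were inferred from the spacing of TPM (71.1% to 78.8% of values within 0.01 of a whole read), too few for a count test.

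Clusters were joined where at most 24 nt lay between them (30191 sites, 13668 in all 4 tables). RefSeq (TAIR10.1) gave names and spans but no strand, which was inferred from tags near gene ends or, failing these, inside the gene (at least 90% on a strand). Sites were tested with limma 3.58.1 (R 4.3.3), 2-sided, on log2(TPM + 1), which understates changes of low values, with Benjamini-Hochberg adjustment at 0.05, and the script was tested on simulated data. For internal against distal use, values under 3 TPM were set to 0 and genes needed a mean of at least 1 TPM in both classes. Distal sites lay from 500 nt before to 200 nt after the gene end. Members and lists were chosen with earlier results of these data known. Named genes were the members and, from the pathway list, genes needed to describe it. No sequence was used here.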

Additional observations from a re-analysis of the deposited data

How the results depend on the processing

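FLK and FVE, the members tested, passed under no alternative. With a library left out, the FLK change ranged from −0.28 to 0.088 for site and total alike (above 0 without cpsf70 replicate 2), and FVE stayed below 0, from −0.72 to −0.09 over all alternatives. CSTF77 (−0.032 to 0.35) and GRP7 (−0.076 to 0.32) turned below 0 without Col0 replicate 2, and SSU72 turned to 0.0020 with clusters joined only where they overlap or touch, an alternative chosen after seeing the data; none passed. The other 125 of 130 values of single genes kept their direction and did not pass. Sites called over the whole table numbered 301, and 34 after rescaling by median ratios (1 higher, 33 lower), 3754 with all sites and absent values as 0 (1563 higher, 2191 lower), and 179 to 332 with a library left out (179 without Col0 replicate 2, 189 without cpsf70 replicate 1). Gene totals called numbered 180, and 56 after rescaling, 1360 with absent values as 0, 104 with touching clusters only, and 118 to 169 with a library left out (118 without cpsf70 replicate 1). Internal against distal calls numbered 0, and 29 with values as deposited. With the replicate block 0 sites and 1 gene total were called; the labels do not pair the numbers (correlation of deviations 0.198). At a fold of at least 4, shared m6A peaks were found in 4 members (FCA, FLK, FVE and LD) and shared CLIP peaks in 1 (FLD), against 6 and 2. FVE thus had no shared CLIP peak at that fold. Requiring an overlap of 50% changed neither count. The cause of these differences was not tested. In the poly(A) tables a missing entry cannot be read as a lack of tags: 3 TPM stands at 9.41 to 18.3 reads on the inferred units.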
